A study of Ambystoma mexicanum with 12 samples.

Results

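The 91 genes described here are the molecular chaperones, their co-factors and the regulators of the unfolded protein response that could be named on an axolotl expression array, out of 8639 named genes in all. They were taken by symbol: the heat shock protein families (HSPA, HSPB, HSPD, HSPH and HSP90), the J-domain proteins (DNAJ), the protein disulfide isomerases (PDIA), the CCT chaperonin subunits with TCP1, the FKBP prolyl isomerases, the BAG proteins, and DDIT3, ATF4, XBP1, HYOU1, CALR, CANX, HSF1, SERPINH1 and TRIB3. A gene was represented by its probe set of highest mean signal. The 91 genes lie on 112 probe sets, and 76 of them have a single one. HSPA9, HSPE1 and BAG3 were not among the named probe sets and are not analysed here.

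The samples were forelimb blastemas of juvenile axolotls (Ambystoma mexicanum) of 8.8 cm mean total length, taken 14 days after amputation through the distal lower arm. A blastema is the bud of cells under a wound epidermis from which the limb regrows. From day 7 to day 14 the animals were kept in retinoic acid (RA, which activates the nuclear retinoic acid receptors), in LE135 (a laboratory-made compound known to block the beta form of those receptors) or in the vehicle DMSO. Per the series' design text, limbs given RA go on to form proximodistal duplications, limbs given LE135 end truncated, and limbs given DMSO regenerate normally. Each treatment had 16 animals and 4 samples, each sample pooling 1 forelimb from each of 4 animals. The 12 samples are pools of whole tissue that hold epidermis, connective tissue and whatever stump was carried along. Deviations of same-numbered DMSO and LE135 samples were correlated, so these pools may not be independent. Neither the labels nor the design text states a dose for either drug.

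Chaperones bind unfolded protein chains and help them reach or keep their native shape. HSP70 proteins do so in cycles driven by ATP, with J-domain proteins delivering the client and nucleotide exchange factors releasing it, while HSP90 and the TRiC ring act on more selected clients such as kinases, receptors, actin and tubulin. In the endoplasmic reticulum (ER), where collagens and other secreted proteins fold, an overload of unfolded chains activates the sensors of the unfolded protein response, which raise ER chaperones through XBP1 and ATF6 and, through ATF4, induce DDIT3 (also called CHOP), a transcription factor of prolonged stress. These roles are known mainly from mammals and yeast.

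All values are log2 expression values normalized by the RMA method, so a difference of 1 is a doubling of signal, and levels of different probe sets are not compared. Array medians lay between 6.61 and 6.70. The samples DMSO 4 and LE135 4 stood apart. Their mean correlations with the rest of their own group were 0.978 and 0.986, against 0.989 to 0.995 for the other samples. The main counts of genes that passed are therefore also given without both of these samples. In DMSO 4, 10 of the 91 genes lay more than 0.5 from their group mean (14.7% of all probe sets), and in LE135 4, 7 did (9.05%). Of the tissue's marker genes, the 12 measured epidermal markers averaged 10.39 to 10.51 in RA, 10.19 to 10.50 in LE135 and 10.82 to 10.98 in DMSO samples, and the 11 measured connective tissue markers 10.40 to 10.65 in RA, 10.27 to 10.44 in LE135 and 9.99 to 10.33 in DMSO samples.

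Most chaperone genes did not pass the test in any comparison of the 3 treatments. Under RA, PDIA5 and HSP90AB1 rose and DDIT3 fell. Under LE135, HSP90AB1 rose, and DDIT3 and the J-domain gene DNAJC9 fell. With the sample number as a replicate block, which allows for a possible pairing of LE135 with DMSO samples, DDIT3 alone passed under LE135. Between RA and LE135 none of the 91 passed the test. The tests were limma moderated contrasts with Benjamini-Hochberg adjustment over all 20035 probe sets at an adjusted p of 0.05, and the words rose and fell are kept for genes that passed. The comparisons of RA and of LE135 with DMSO share the same 4 DMSO samples.

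For RA against DMSO, 3 of 91 genes passed (3.3%), where 2.64% of all probe sets did: 2 rose, against a background of 1.62% higher, and 1 fell, against 1.01% lower. The differences centred on 0, with 44 genes above and 47 below and a median of -0.01, beside -0.01 for all probe sets. At an unadjusted p under 0.05 there were 13 genes, where all probe sets gave 14.9%, and 12 had RA values that did not overlap with the DMSO values, where all probe sets gave 11.3%. DDIT3, PDIA5 and CANX differed by more than 1.5-fold (background 4.24%). These shares are close to the background and give no result about the chaperones as a group. Without DMSO 4 and LE135 4 the count was 5 genes, against a background of 7.64%: HYOU1 and DNAJC15 joined the 3.

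For LE135 against DMSO, 3 of 91 genes passed (3.3%), where 2.09% of all probe sets did: 1 rose, against a background of 0.893% higher, and 2 fell, against 1.19% lower. The median difference was 0.00, with 46 genes above and 45 below. At an unadjusted p under 0.05 there were 9 genes (background 13.3%), the groups did not overlap in 6 (background 7.53%), and DDIT3 and HSP90AA1 differed by more than 1.5-fold (background 3.11%). Without DMSO 4 and LE135 4 the count was 4 genes, against 5.13% of all probe sets, with HYOU1 added. With the sample number as a replicate block, fitted in case LE135 and DMSO samples are paired by number, 1 gene passed (DDIT3). In the F test over the 3 treatments, PDIA5, DDIT3 and HSP90AB1 passed (3.3%, background 2.68%), and DDIT3 and PDIA5 also met the study's rule, which adds a change of over 1.5-fold against DMSO under RA or LE135 (background 1.64%).

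**Figure D1:**
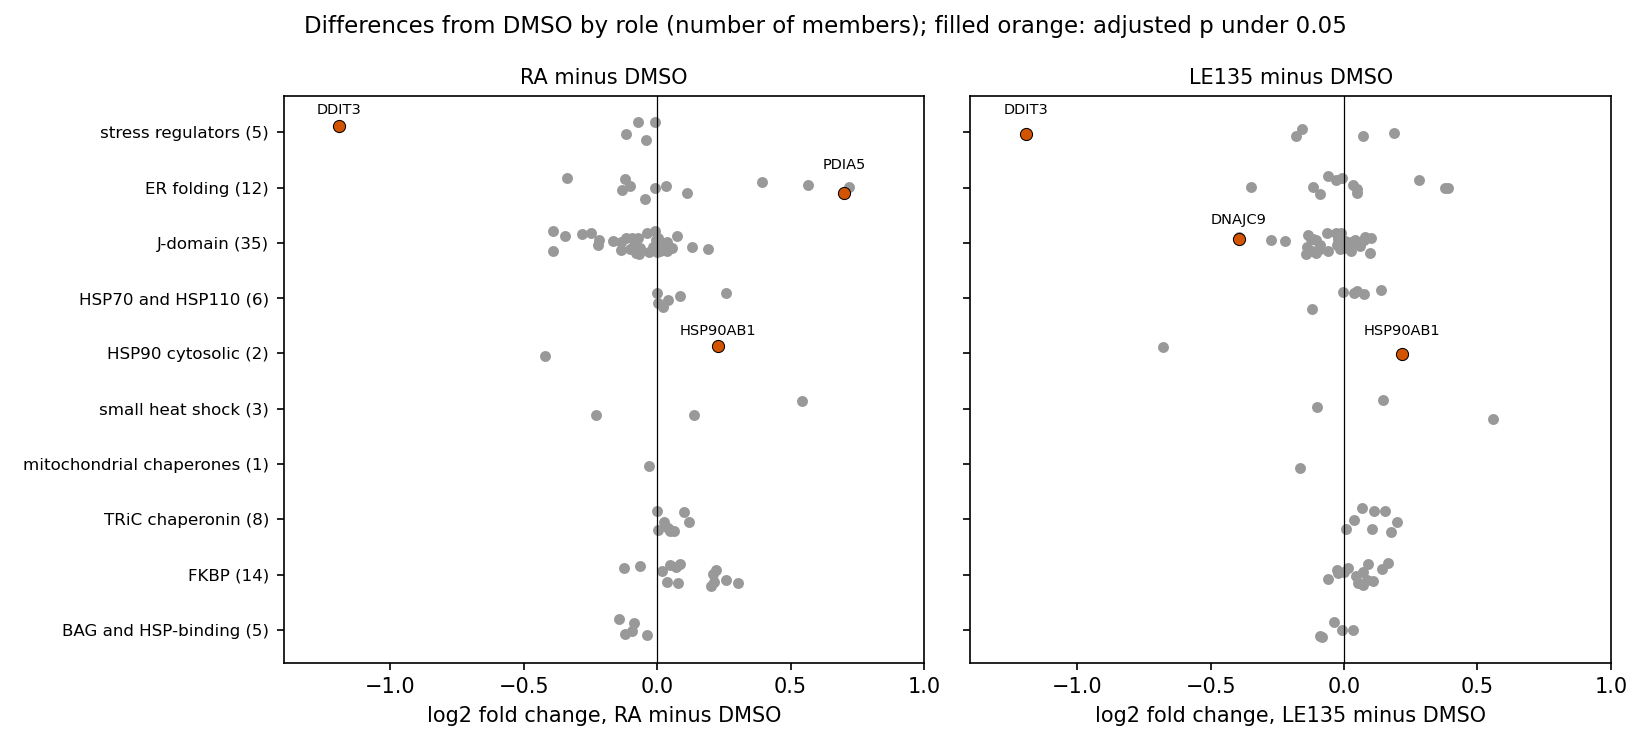
Differences of the 91 genes from DMSO on the log2 scale, RA left and LE135 right, with genes placed by role (number of genes in brackets) and 1 point per gene; the vertical spread within a role has no meaning. Most points lie near 0 in both panels, and the orange points with names are the genes that passed the adjusted test.

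The stress regulators were quiet except for DDIT3. DDIT3 had values of 8.03, 8.48, 8.14 and 8.33 in RA samples, 8.24, 9.12, 8.10 and 7.53 in LE135 samples, and 9.57, 9.39, 9.46 and 9.34 in DMSO samples. Every RA and LE135 sample was below every DMSO sample, and LE135 2 came closest to DMSO. The group means were 8.25 ± 0.20 with RA, 8.25 ± 0.66 with LE135 and 9.44 ± 0.10 with DMSO (SD, n = 4 each). DDIT3 thus fell to 0.437 of the DMSO signal with RA (log2 difference -1.19, SE 0.26, limma adjusted p = 0.0342) and to 0.438 with LE135 (-1.19, SE 0.26, limma adjusted p = 0.0387). In whole tissue, fewer cells that hold a transcript and less of it per cell cannot be told apart, here or in the genes below. The epidermal markers given above were also lower with both drugs, with AQP3 and ST14 falling under RA (-1.53 and -0.43) and ST14, TP63, JUP, TGM1 and DSC2 under LE135 (-0.47, -0.81, -0.35, -1.63 and -0.81). Their part in the fall of DDIT3 was not tested.

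The DDIT3 call was near its threshold. Leaving out 1 sample at a time ended it under RA without any of DMSO 1 to 3, RA 1 to 4 or LE135 1 (adjusted p 0.0585 to 0.109), and under LE135 in all cases but the omission of DMSO 4 or LE135 2 (0.0539 to 0.107), while the difference itself stayed within -1.27 to -1.12 under RA and -1.48 to -0.95 under LE135. Of the 8 other alternatives, the RA call held in 8 and the LE135 call in 6. The LE135 call was lost with arrays centred on the median (limma adjusted p = 0.0506) and with only the 2 groups compared (0.152).

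None of the other 4 stress regulators passed. ATF4, which activates amino acid and stress genes, differed by -0.07 with RA and -0.16 with LE135 (adjusted p = 0.81 and 0.534). XBP1, whose spliced form drives ER chaperones, differed by -0.01 and 0.19 (0.987 and 0.526), and the array value does not separate spliced from unspliced messages. TRIB3, a pseudokinase induced by DDIT3 and ATF4 in mammals, differed by -0.12 and 0.07. HSF1, the master factor of the heat shock response, differed by -0.04 and -0.18. In none of the 4 did the drug and DMSO samples separate.

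**Figure D2:**
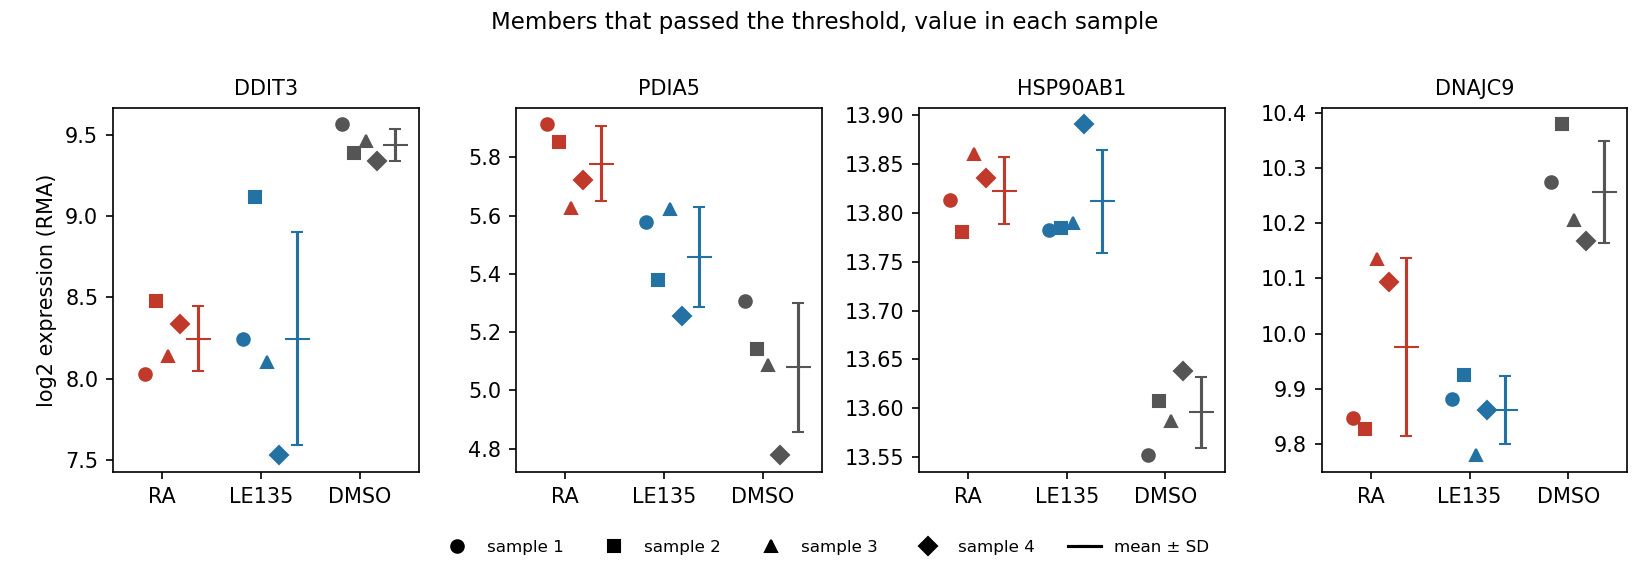
Log2 expression of DDIT3, PDIA5, HSP90AB1 and DNAJC9, the 4 genes that passed in at least 1 comparison, with 1 point per sample, the shape giving the sample number, and the mean ± SD beside each group of 4; each panel has its own vertical scale. DDIT3 is lower in all 8 drug samples than in the DMSO samples, PDIA5 is highest with RA, HSP90AB1 is higher with both drugs by a small step, and DNAJC9 is lowest with LE135.

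Of the 12 ER folding genes of the set, PDIA5 was the one that passed with all samples. It encodes a thiol-disulfide isomerase, an enzyme that forms and rearranges the disulfide bonds of secreted proteins. Its values were 5.91, 5.85, 5.625 and 5.72 in RA samples, 5.58, 5.38, 5.623 and 5.25 in LE135 samples, and 5.31, 5.14, 5.09 and 4.78 in DMSO samples. All RA samples were above all LE135 and DMSO samples, RA 3 only just above LE135 3, and LE135 4 lay within the DMSO range. PDIA5 rose 1.62-fold with RA (log2 difference 0.70, SE 0.12, limma adjusted p = 0.012) and differed by 0.38 with LE135 (adjusted p = 0.159). This was the one call that held whichever sample was left out, with adjusted p up to 0.047.

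HYOU1 and CANX had large differences with RA that did not pass, and both had low values in DMSO 4 and LE135 4 but not in RA 4. HYOU1, an ER member of the HSP110 family that assists HSPA5, had values of 8.99, 9.08, 9.01 and 9.11 in RA samples, 9.14, 9.13, 8.91 and 8.31 in LE135 samples, and 8.60, 8.64, 8.67 and 8.03 in DMSO samples. RA samples were all above DMSO samples, while LE135 4 was below 3 of the DMSO samples. The differences were 0.57 with RA and 0.39 with LE135 (adjusted p = 0.158 and 0.403), and without DMSO 4 and LE135 4 they were of similar size, 0.41 and 0.43, and passed (adjusted p = 0.00686 and 0.0113). A second HYOU1 probe set, of lower signal, differed by 0.03 and -0.18. CANX, the membrane-bound lectin chaperone calnexin, had values of 9.26, 8.86, 9.15 and 9.03 in RA samples, 8.72, 8.85, 9.13 and 7.83 in LE135 samples, and 8.63, 8.81, 8.66 and 7.32 in DMSO samples. Its difference with RA, 0.72 (SE 0.33, adjusted p = 0.347), was the largest of the 12 ER folding genes, and it was 0.37 without these samples (adjusted p = 0.0817).

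The abundant ER chaperones differed more between samples than between treatments. HSPA5 (BiP), the ER HSP70 and classical readout of the unfolded protein response, had values of 11.59, 11.49, 12.05 and 12.08 in RA samples, 11.89, 12.26, 12.17 and 10.85 in LE135 samples, and 12.39, 12.33, 12.31 and 11.53 in DMSO samples. The lowest sample of all was LE135 4, and RA 1, RA 2 and DMSO 4 were the next lowest. The differences from DMSO were -0.34 with RA and -0.35 with LE135 (adjusted p = 0.697 and 0.712), and the RA difference without DMSO 4 and LE135 4 was -0.54 (adjusted p = 0.0608). HSP90B1, the ER HSP90, CALR, the soluble lectin chaperone calreticulin, and the disulfide isomerases PDIA3, PDIA4 and PDIA6 differed from DMSO by between -0.13 and 0.05 with either drug, and none passed. Of the 12 ER folding genes, 6 were above and 6 below DMSO under either drug.

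The samples of a group differed in many ER genes. The 12 ER folding genes were taken with 4 chosen J-domain genes of the ER, DNAJB9, DNAJB11, DNAJC3 and DNAJC10. Over these 16, LE135 4 was the lowest LE135 sample in 14 and DMSO 4 the lowest DMSO sample in 10. RA 1 and RA 2 were both below RA 3 and RA 4 in 10 of the 16 genes and both above in 2, PDIA5 and SERPINH1. In SERPINH1, LE135 4 was the highest LE135 sample. These counts take each gene's probe set of highest mean signal, and other probe sets did not all share the order. Those of DNAJC10 and SERPINH1 had LE135 4 and DMSO 4 highest in their groups. For DNAJC10 these values were 7.44 and 6.55 in LE135 4 and 6.85 and 5.93 in DMSO 4. The other probe sets of HYOU1 and DNAJC3 had both samples lowest, and a dim one of CALR had only DMSO 4 lowest. DNAJB9, an ER J-domain protein induced by XBP1, was highest among DMSO samples in DMSO 4, with 9.23 against 8.37 to 8.92. This order was noticed in these data, and the genes share their samples, so the counts describe the samples and are no test.

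**Figure D3:**
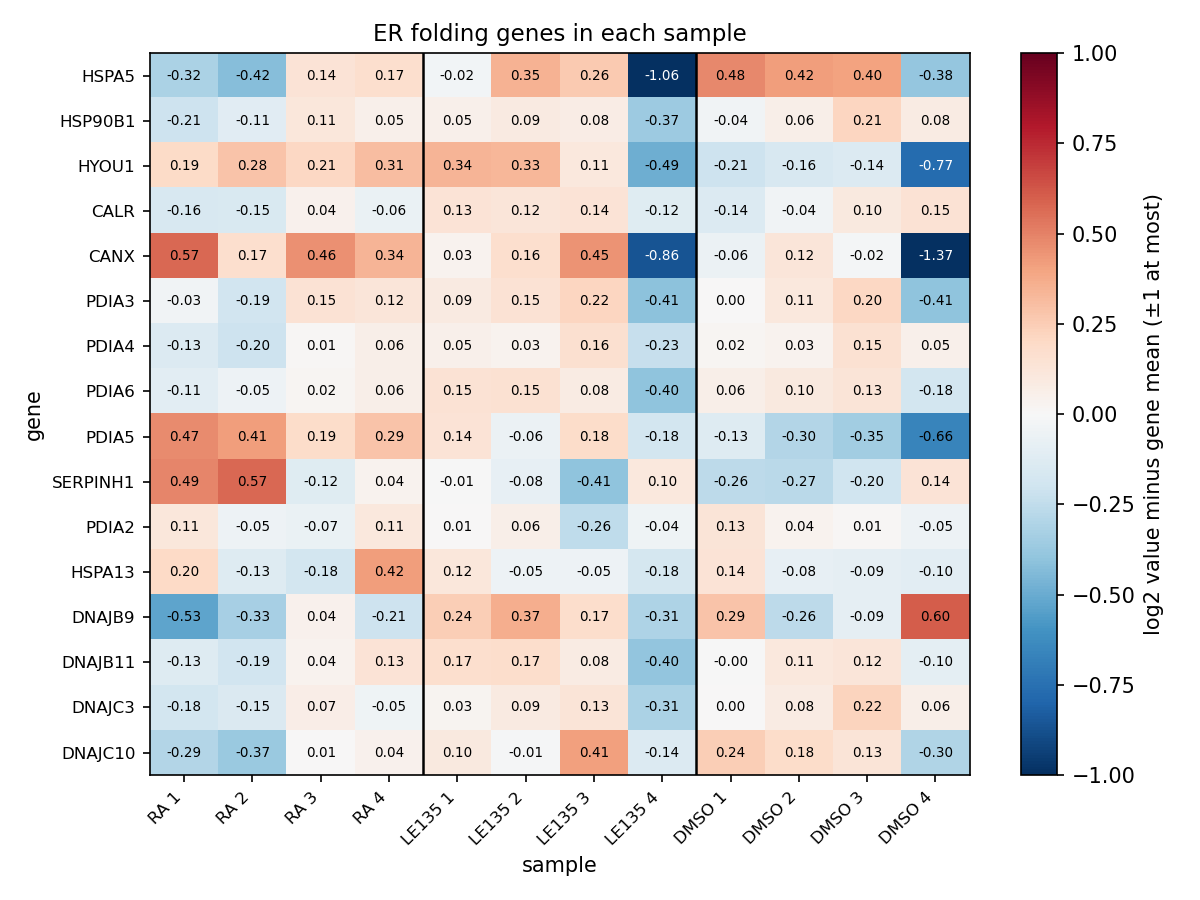
Log2 value of 16 ER folding and ER J-domain genes in each sample relative to that gene's average across all 12, with samples in columns (RA, LE135, DMSO) and genes in rows; red is above and blue below the average, and colours stop at ±1. LE135 4 is the lowest LE135 sample in 14 rows, and RA 1 and RA 2 are below RA 3 and RA 4 in 10 rows and above them in 2.

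SERPINH1 (HSP47), the collagen-specific chaperone of the ER, had values of 10.22, 10.30, 9.60 and 9.76 in RA samples, 9.72, 9.64, 9.32 and 9.83 in LE135 samples, and 9.46, 9.46, 9.53 and 9.86 in DMSO samples. RA 1 and RA 2 were above all other samples, while RA 3 and RA 4 lay inside the range of the others. The difference with RA was 0.39 (adjusted p = 0.295), and its other probe sets gave 0.35 and -0.07. Beside it, the mean level of 16 collagen folding and modification genes was highest in RA 1 and RA 2, at 9.18 and 9.13, against 8.63 to 8.99 in the remaining samples. P4HA1, a subunit of collagen prolyl hydroxylase, and BMP1, the protease that trims procollagen, rose with RA by 0.47 and 0.49 (limma adjusted p = 0.0163 and 0.0462). By limma, 8 of the 16 had an unadjusted p under 0.05 with RA, beside 14.9% of all probe sets. None of the 16 passed with LE135, and 4 of them had an unadjusted p under 0.05, beside 13.3% of all probe sets. The part of collagen-producing cells in the SERPINH1 order was not tested.

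Of the cytosolic HSP90 genes, HSP90AB1, the constitutive form, rose by a small and even step. Its values were 13.81, 13.78, 13.86 and 13.84 in RA samples, 13.78, 13.78, 13.79 and 13.89 in LE135 samples, and 13.55, 13.61, 13.59 and 13.64 in DMSO samples. All drug samples were above all DMSO samples, 1.17-fold on average with RA (log2 difference 0.23, SE 0.05, adjusted p = 0.0356) and 1.16-fold with LE135 (0.22, SE 0.05, adjusted p = 0.0489). Its other probe sets differed by 0.02 and 0.06 with RA and by 0.09 and 0.17 with LE135 and did not pass. Both calls were near the threshold: without 1 sample the RA call held only for the omission of DMSO 4, LE135 3 or LE135 4, the LE135 call only for that of DMSO 4, and the adjusted p otherwise reached 0.0974 and 0.137. The replicate block ended both calls (limma adjusted p = 0.0561 with RA and 0.0757 with LE135). Both calls were lost with the mean of the gene's probe sets (limma adjusted p = 0.494 with RA and 0.27 with LE135). They were also lost with arrays centred on the median (0.0573 and 0.0582) and with only the 2 groups compared (0.0769 and 0.184). HSP90AA1, the stress-inducible form in mammals, differed by -0.42 with RA and -0.68 with LE135 (adjusted p = 0.464 and 0.214), with DMSO 4 the highest sample at 7.92 and the other DMSO samples at 6.62 to 7.33. Its differences without DMSO 4 and LE135 4 were -0.18 and -0.54 (adjusted p = 0.572 and 0.122).

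No HSP70 or HSP110 gene outside the ER passed. HSPA8, the constitutive HSP70 and the gene of highest signal in the set, ranged from 14.61 to 14.71 over all 12 samples and lay near the top of the array's scale. Its 3 other probe sets, of much lower signal, varied more within treatments (SD 0.44 to 0.62) and differed by -0.22 to 0.05 with RA and by -0.03 to 0.42 with LE135, without passing. HSPA4, an HSP110-type exchange factor, was 0.26 higher with RA, where the samples ran from 9.56 to 9.67 against 9.08 to 9.48 with DMSO, without passing (adjusted p = 0.196). HSPH1, the inducible HSP110, was near the floor of the array with a mean of 3.53, so a change could go unseen. HSPA12B, an atypical HSP70 known from endothelium in mammals, was high in LE135 4 (6.81) and DMSO 4 (6.90) and 4.72 to 5.64 in the other 10 samples. Without DMSO 4 and LE135 4 it differed from DMSO by 0.46 with RA and -0.13 with LE135 (limma adjusted p = 0.0701 and 0.674). The RA minus LE135 difference was then 0.59 (limma adjusted p = 0.117), so none passed. With all 12 samples, none of the 6 HSP70 and HSP110 genes passed in any comparison by limma. HSPA4 under RA was then the one with an unadjusted p under 0.05 against DMSO. Beside HSPA12B, the mean level of 6 endothelial markers was 6.34 in LE135 4, the highest of all samples, and 5.92 in DMSO 4, inside the DMSO range of 5.75 to 6.31.

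The J-domain proteins, the largest family with 35 genes, lay slightly below DMSO. With RA 25 of 35 did (median -0.07) and with LE135 24 of 35 (median -0.03), where 10645 of 20035 and 9566 of 20035 probe sets did so. Without DMSO 4 and LE135 4, 28 and 22 of the 35 were below, beside 10161 and 9334 of 20035 probe sets. With all 12 samples, DNAJC9, a nuclear J-domain protein that handles histones in human cells, was the one that passed. Its values were 9.85, 9.83, 10.14 and 10.09 in RA samples, 9.88, 9.93, 9.78 and 9.86 in LE135 samples, and 10.28, 10.38, 10.21 and 10.17 in DMSO samples. All drug samples were below all DMSO samples, RA 3 only just. DNAJC9 fell by 0.39 with LE135 (SE 0.08, adjusted p = 0.0346) and differed by -0.28 with RA (adjusted p = 0.113). A dimmer second probe set differed by -0.76 with LE135 and 0.12 with RA (adjusted p = 0.209 and 0.898), so under RA the probe sets differ in sign. Leaving out any 1 of DMSO 1 to 3 or LE135 1 to 4 ended the LE135 call (adjusted p 0.0564 to 0.0939), as did the replicate block (adjusted p = 0.0755). Centring arrays on the median (limma adjusted p = 0.0619), comparing only the 2 groups (0.0567) and averaging the gene's probe sets (0.0779) also ended it. Proliferation markers were lower beside it: the 11 measured averaged 10.10 to 10.14 in RA, 9.82 to 10.04 in LE135 and 10.12 to 10.39 in DMSO samples, MAD2L1, MCM5, NUSAP1 and ANLN fell by 0.66, 0.35, 0.52 and 0.77 with LE135, and with RA MAD2L1 and ANLN fell while TOP2A rose. Their part in the DNAJC9 result was not tested.

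Among other J-domain genes, DNAJC8 differed by -0.13 and -0.14 with RA and LE135 and was lower in every drug sample than in every DMSO sample, but did not pass (adjusted p = 0.265 and 0.278). A second DNAJC8 probe set differed by -0.095 and -0.054, and its drug and DMSO samples overlapped. DNAJC5, the cysteine string protein of secretory vesicles, differed by -0.25 with RA (adjusted p = 0.228). DNAJB1, a heat-inducible partner of HSP70, differed by -0.01 with RA and -0.28 with LE135 (adjusted p = 0.986 and 0.273). DNAJC15, a J-domain protein of mitochondria, had DMSO values of 7.53, 7.49, 7.21 and 6.38 and differed by -0.35 with RA. Without DMSO 4 and LE135 4 it fell by 0.60 with RA (adjusted p = 0.0319). The ER co-chaperone DNAJC3 and the cytosolic DNAJA1 differed by at most 0.17 in size. DNAJB9 did not pass in any comparison with all 12 samples. Without DMSO 4 and LE135 4 it differed from DMSO by -0.24 with RA and 0.28 with LE135 (limma adjusted p = 0.379 and 0.355). Its RA minus LE135 difference was then -0.52 (limma adjusted p = 0.187), so none passed.

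The TRiC chaperonin, the ring that folds actin and tubulin, showed 8 small differences of the same sign. All 8 subunits measured were above DMSO under both drugs, by 0.00 to 0.12 with RA (median 0.04) and by 0.01 to 0.20 with LE135 (median 0.11), where 9390 and 10469 of 20035 probe sets were above. None passed. At an unadjusted p under 0.05 there were CCT3 (0.18) and CCT8 (0.20) under LE135 and no subunit under RA, beside 13.3% and 14.9% of all probe sets. CCT8 had values of 12.49, 12.37, 12.39 and 12.30 in RA samples, 12.46, 12.33, 12.48 and 12.62 in LE135 samples, and 12.27, 12.26, 12.22 and 12.35 in DMSO samples. The number 4 sample was the highest of its group for both LE135 and DMSO, and the groups overlapped. The subunits work in 1 complex, and LE135 4 was the highest LE135 sample for all 8, so the 8 signs are not 8 separate observations. Without DMSO 4 and LE135 4 all 8 were still above DMSO under both drugs, with medians of 0.08 and 0.08. By limma, 2 subunits then had an unadjusted p under 0.05 under RA and 3 under LE135, beside 4752 and 4185 of 20035 probe sets. None passed. HSPD1 (HSP60), the chaperonin of mitochondria, differed by -0.03 with RA and -0.16 with LE135 (adjusted p = 0.924 and 0.436).

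The FKBP prolyl isomerases, which speed the turning of proline bonds during folding, were above DMSO in 12 of 14 cases with RA (median 0.08) and in 11 of 14 with LE135 (median 0.06), beside 9390 and 10469 of all 20035 probe sets, and none passed. Under RA, FKBP7 of the ER had values of 12.43, 12.28, 12.13 and 12.17, against 11.83, 12.05, 11.999 and 11.92 in DMSO samples. These groups did not overlap, but the difference of 0.30 did not pass (adjusted p = 0.109). FKBP10, an ER isomerase that acts on collagen, differed by 0.21 and FKBP5, the HSP90 co-chaperone induced by glucocorticoids in mammals and near the floor of the array here, by 0.22 with RA, also without overlap and without passing (adjusted p = 0.208 and 0.195). At an unadjusted p under 0.05 there were 4 of 14 FKBP genes under RA and none under LE135, beside 14.9% and 13.3% of all probe sets. Without DMSO 4 and LE135 4, 12 of 14 were above DMSO with RA and 9 of 14 with LE135, beside 9874 and 10701 of 20035 probe sets. None passed then either. The 5 BAG and HSP-binding genes (BAG1, BAG2, BAG4 and HSPBP1, which bind HSP70 and regulate its cycle, and HSPBAP1, which binds HSPB1) were all slightly below DMSO with RA (-0.14 to -0.04), none of them with an unadjusted p under 0.05.

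The small heat shock protein HSPB1 (HSP27) varied more than any other gene of the set, with a within-treatment SD of 1.02 against a median of 0.12 for the 91 genes and 0.15 for all probe sets. Its values were 8.59, 9.18, 6.44 and 6.90 in RA samples, 7.91, 7.04, 8.36 and 7.85 in LE135 samples, and 7.87, 8.15, 7.06 and 5.85 in DMSO samples. The groups overlapped fully, and the differences of 0.54 with RA and 0.56 with LE135 had intervals from -0.87 to 1.95 and from -0.85 to 1.97. Both differences were 0.08 without DMSO 4 and LE135 4. The 17 of 26 skeletal muscle markers that were measured had mean levels of 9.47, 9.70, 7.39 and 8.26 in RA samples, 9.03, 7.98, 8.67 and 8.73 in LE135 samples, and 8.83, 8.88, 7.93 and 6.62 in DMSO samples. RA 2 and RA 1 were the highest and DMSO 4 and RA 3 the lowest samples for HSPB1 and for the muscle markers alike. HSPB1 is abundant in muscle in other vertebrates, and the part of muscle in its order was not tested. HSPB7 and HSPB8 were near the floor of the array.

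**Figure D4:**
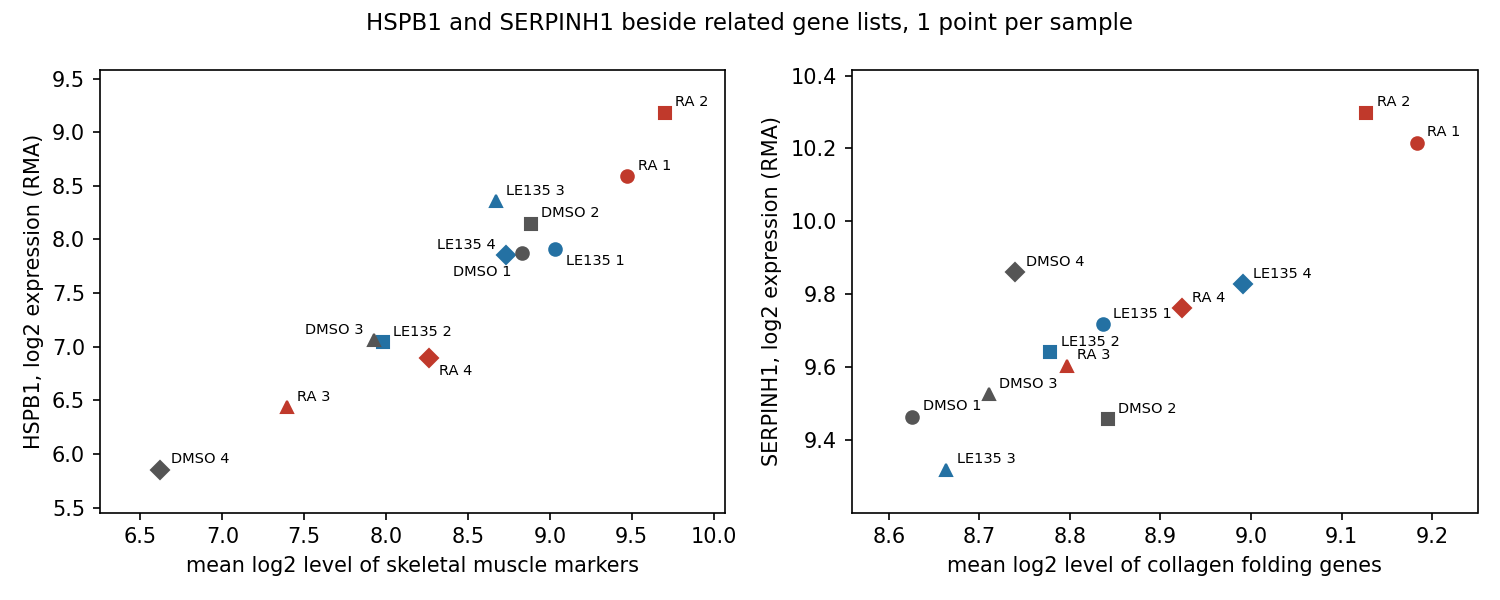
Log2 expression of HSPB1 against the mean log2 level of 17 skeletal muscle markers (left) and of SERPINH1 against that of 16 collagen folding genes (right), 1 point per sample, red for RA, blue for LE135 and grey for DMSO. DMSO 4 has the lowest and RA 2 the highest values in the left panel, and RA 1 and RA 2 are the highest in the right panel.

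RA and LE135 were compared directly at the same times, since the limbs they give differ. None of the 91 genes passed, where 0.02% of all probe sets did (0.00499% higher with RA, 0.015% lower). At an unadjusted p under 0.05 there were 3 genes, PDIA5, DNAJB1 and FKBP7, against 7.67% of all probe sets, and no gene differed by more than 1.5-fold (background 1.72%). The groups did not overlap in 4 genes (background 6.93%): PDIA5 (0.32) and DNAJB1 (0.27) were higher with RA, and FKBP2 (-0.18) and FKBP15 (-0.15) lower. Without DMSO 4 and LE135 4 the count was also 0, where 0.215% of all probe sets passed.

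The intervals show what size of difference these samples allow. For DDIT3 the RA minus LE135 difference was -0.00 with a 95% confidence interval from -0.56 to 0.56, for PDIA5 0.32 from 0.06 to 0.58 (adjusted p = 0.537), for HSP90AB1 0.01 from -0.10 to 0.12, for HYOU1 0.18 from -0.23 to 0.58 and for HSPA5 0.01 from -0.66 to 0.68. On the fold scale these bounds are 0.935 to 1.09 for HSP90AB1, 0.677 to 1.47 for DDIT3 and 0.635 to 1.60 for HSPA5. A result short of the threshold does not show that the drugs act alike.

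**Figure D5:**
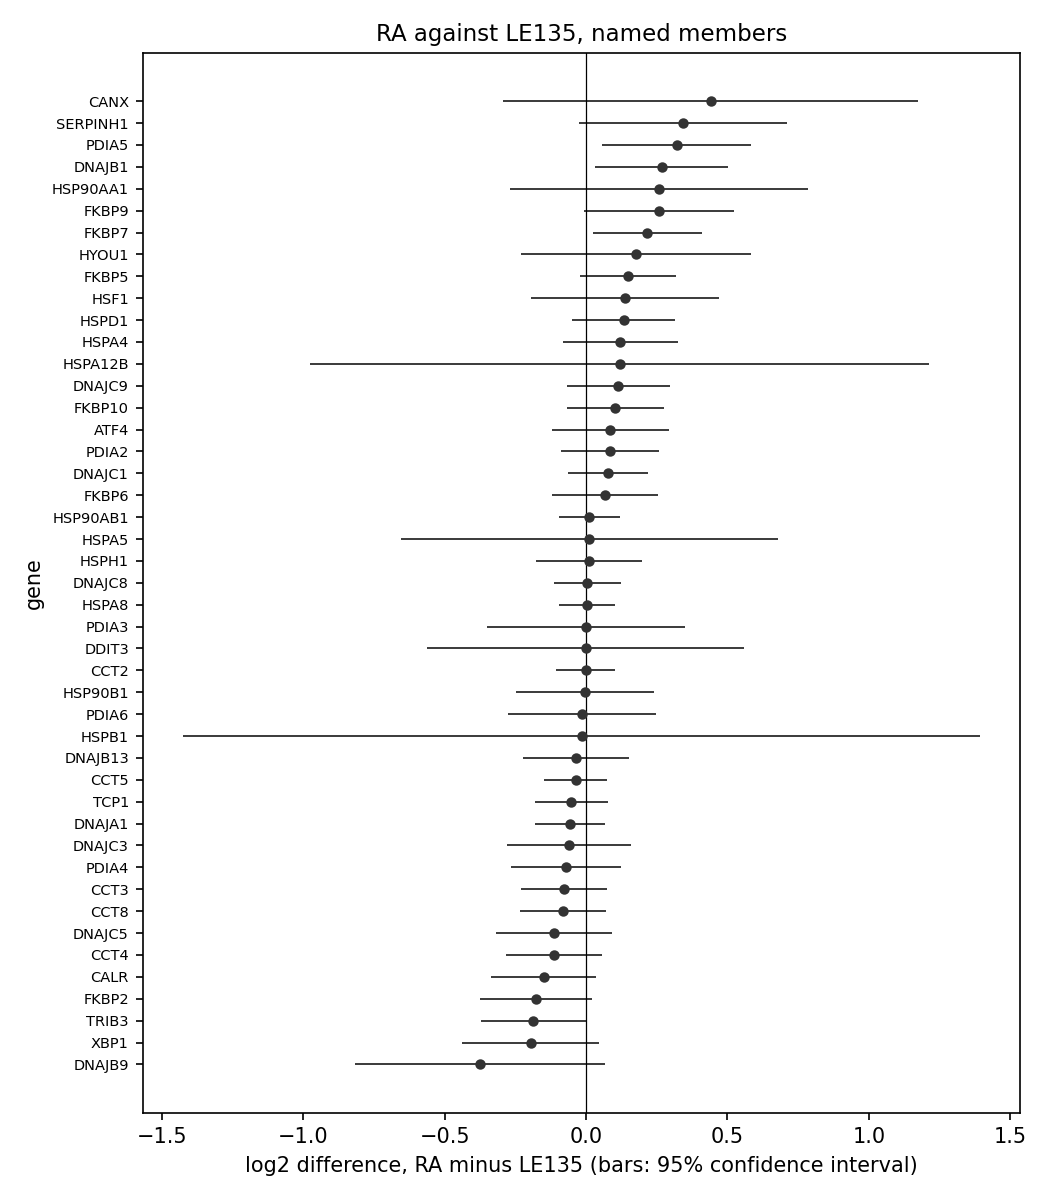
RA minus LE135 differences on the log2 scale for the 45 genes named by rule, sorted by size, with bars for the 95% confidence interval. Nearly all bars cross 0, and PDIA5, DNAJB1 and FKBP7 are the ones that lie above it.

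Lists of related genes outside the 91 gave few calls of their own, where 2.64% of all probe sets passed with RA and 2.09% with LE135. Of 18 measured sensors and regulators of the unfolded protein response (28 listed), ATF5 fell with both drugs. ATF5 is a transcription factor of the integrated stress response, of the same family as ATF4. Its values were 9.15, 9.26, 8.95 and 9.002 in RA samples, 8.97, 9.10, 8.88 and 8.93 in LE135 samples, and 9.76, 9.52, 9.68 and 9.53 in DMSO samples, with every drug sample below every DMSO sample. The differences were -0.53 with RA and -0.65 with LE135 (limma adjusted p = 0.00871 and 0.00303). EIF2AK1, a kinase that feeds into ATF4, differed by -0.27 and -0.40 (limma adjusted p = 0.167 and 0.0511). ERN1, the IRE1 sensor that splices XBP1, differed by 0.12 and 0.28 (limma adjusted p = 0.582 and 0.13), and both did not pass. At an unadjusted limma p under 0.05 there were 3 of the 18 under RA and 6 under LE135, beside 14.9% and 13.3% of all probe sets.

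Of 38 other ER folding and glycoprotein quality control genes (46 listed), 2 changed with RA and none with LE135. TMX3, a membrane-bound disulfide isomerase, had values of 7.71, 7.87, 7.83 and 7.74 in RA samples, against 7.32, 7.34, 7.14 and 6.90 in DMSO samples, and rose by 0.61 (limma adjusted p = 0.0129). SIL1, the exchange factor of HSPA5, had values of 8.84, 8.69, 8.99 and 8.99 in RA samples, against 9.32, 9.19, 9.34 and 9.21 in DMSO samples, and fell by 0.39 (adjusted p = 0.0326). With LE135 they differed by 0.44 and -0.31 (limma adjusted p = 0.0626 and 0.0922), and the RA minus LE135 difference of neither passed. At an unadjusted limma p under 0.05 there were 6 of the 38 under RA and 4 under LE135, beside 14.9% and 13.3% of all probe sets.

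None of 22 genes of ER-associated degradation (34 listed) and none of 26 cytosolic co-chaperones and heat shock factors (35 listed) passed under either drug. Their limma counts at an unadjusted p under 0.05 were 1 and 1 under RA and 1 and 0 under LE135. Of all probe sets 14.9% and 13.3% reached that limit under RA and LE135. Among 20 genes of mitochondrial protein quality control, ATF5, which that list shares, was the one that passed. Of these 20, 2 had an unadjusted limma p under 0.05 under RA and 2 under LE135. List medians of the log2 difference lay between -0.06 and 0.04 under both drugs, beside -0.01 for RA and 0.01 for LE135 over all probe sets, except for the collagen list (0.26 with RA, 0.07 with LE135). No gene of these 6 lists passed between RA and LE135. In that comparison 5 genes had an unadjusted p under 0.05, beside 7.67% of all probe sets. They were EDEM3, HTRA2, P4HA1, P4HA2 and CRTAP, all but EDEM3 and HTRA2 from the collagen list, and are named after their values were seen.

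Without DMSO 4 and LE135 4 more genes passed with RA in all 6 lists, and with LE135 in 3 of them: 4 of 18 unfolded protein response genes passed with RA and 3 with LE135, 3 and 1 of the 38 ER genes, 2 and 0 of the 22 degradation genes, 1 and 1 of the 26 cytosolic genes, 2 and 1 of the 20 mitochondrial genes and 3 and 0 of the 16 collagen genes. Calls rose over the whole array in this setting. Of all probe sets 7.64% passed with RA and 5.13% with LE135, against 2.64% and 2.09% with all samples.

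Markers of the cell types that a blastema sample can hold moved as follows, and their part in the chaperone results was not tested beyond the values given. Connective tissue markers had a median difference of 0.32 with RA and 0.12 with LE135, FAP rose with both drugs, by 1.60 and 1.39, and DCN rose with RA by 0.32. Muscle markers had a median difference of 0.69 with RA and 0.55 with LE135, and of 0.03 and 0.04 without DMSO 4 and LE135 4; DES rose with RA by 0.92. Of 7 cartilage markers, ACAN rose with both drugs (2.66 and 2.61) and MATN4 fell with RA (-2.86). Of 10 measured macrophage and neutrophil markers, CYBA rose and SPI1 fell with LE135 and none changed with RA, while none of 3 erythrocyte, 3 Schwann cell and 6 endothelial markers passed by limma under either drug, with 1 at an unadjusted p under 0.05 (a Schwann cell marker with RA).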

How the data were processed

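RNA from 12 pooled blastema samples was hybridised to an axolotl Affymetrix array, 1 array per sample. The deposited values are log2 expression values made by the authors with RMA, per the submitters' processing notes; the version is not given in the sources used here. They were used as deposited, after removal of 45 control probe sets, leaving 20035. Gene names came from the platform annotation (10951 probe sets with 1 symbol, 9084 with none), and all 91 genes were found in the RefSeq gene table, from which no coordinates were used. All 12 samples were fitted together with limma 3.58.1 in R 4.3.3, with an F test over treatments and 3 contrasts, Benjamini-Hochberg adjusted at 0.05 over all probe sets; no filter on low signal was applied. The p-values measure the spread between pools of 4 animals, and the main fit held no replicate block. The members and the lists of genes were chosen with earlier results of these data known. Genes named with values were the members that passed in a comparison, the 28 measured members of a fixed table of well-known chaperones, the 12 with the smallest unadjusted p for each drug against DMSO and the 8 for RA against LE135, the 3 of highest and of lowest mean signal and the 5 of largest spread within treatments, 45 in all; up to 6 genes of each other list were named by smallest p, and marker genes where they passed. Sample numbers 1 to 4 recur in each treatment. The deviations of same-numbered DMSO and LE135 samples correlated at 0.126 to 0.607, all above 0.1. A replicate block was therefore also fitted, in case the numbers pair these groups. Correlations between samples of different number were not computed, and DMSO 4 and LE135 4 stood apart in their groups. The correlations therefore cannot show that the numbers mark pairs, and the sources used here do not state a pairing. Of RA with DMSO (0.0397 to 0.179) and RA with LE135 (-0.175 to 0.261) not every pair was above 0.1. The fit was tested on simulated data. Alternatives were the replicate block, centring each array, array weights, a filter on dim probe sets, a trended and robust prior, fitting only the groups compared, ordinary ANOVA, the mean of a gene's probe sets, and leaving samples out. The number of arrays limits the precision.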

Additional observations from a re-analysis of the deposited data

Results flagged for a closer look

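Within each group of 4 samples, Dixon's test for an outlying sample at its 95% critical value was applied to the 45 named genes, 135 tests in all, and 13 marked a sample far from the others. Chance alone marks about 1 in 20 groups. The genes share their samples, and some were named for their large spread in these data, so the count cannot be held against that rate. In LE135 4, 7 genes stood out: CALR at 13.59, HSP90B1 at 11.69, HSPA8 at 14.63 and PDIA6 at 11.81 were the lowest of their group, and DNAJA1 at 12.97, HSP90AB1 at 13.89 and HSPA12B at 6.81 the highest. In DMSO 4, 4 did: CANX at 7.32, HSPA5 at 11.53 and HYOU1 at 8.03 were the lowest of their group and SERPINH1 at 9.86 the highest. The remaining values were DNAJB13 at 3.91 in LE135 3 and FKBP6 at 4.46 in DMSO 1, each the highest of its group. The cause was not tested.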

How the results depend on the processing

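Over the 20 alternatives that give contrasts, 12 of which left out 1 sample, no called difference changed sign. Of 5418 values, 5298 belonged to differences not called in the main fit. Of these 5298, 7 gained a call and 340 changed sign. The values that could lose a call were only those outside the 5298, and 59 of them lost it. Ordinary ANOVA bears on the counts among treatments alone. Genes changed among treatments (3) numbered 5 with array weights, 1 with ordinary ANOVA, 6 without DMSO 4 and LE135 4, and 0 to 3 without 1 sample. With RA against DMSO (3) there were 5 without both samples and 1 to 4 without 1 sample. With LE135 against DMSO (3) there were 5 with array weights, 1 with the mean of a gene's probe sets, 0 with arrays centred on the median, 0 with only the 2 groups compared, and 0 to 3 without 1 sample. The study's rule, met by 2 genes with the limma F test, gave 0 with ordinary ANOVA and 0 to 2 without 1 sample. RA against LE135 gave 0 throughout. The cause was not tested. With the replicate block, LE135 against DMSO gave 1 gene, as HSP90AB1 and DNAJC9 no longer passed. RA against DMSO, where not every same-numbered pair correlated above 0.1, gave 2, as HSP90AB1 had a limma adjusted p of 0.0561. The F test over the 3 treatments gave 2 genes with the block. No other call between 2 treatments changed with the block. HYOU1 passed with array weights under both drugs (0.44 and 0.44), and so did PDIA5 with LE135. Of the 91 genes, 14 have a mean signal under 4.57, the limit used to leave out dim probe sets, where small changes are hard to see.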
